A study of Homo sapiens with 3 samples.

Results

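A group of 10 genes that set the pace of the G1 phase was examined in PLC, an established human hepatocellular carcinoma line: the D-type cyclins CCND1, CCND2 and CCND3, their kinases CDK4 and CDK6, the INK4 inhibitors CDKN2A and CDKN2B, the CIP/KIP inhibitors CDKN1B and CDKN1C, and RB1. They were taken by gene name, and all 10 were found once in each library among 51850 named loci with an entry in every library. RNA was sequenced from 3 libraries, 1 per group, all harvested 48 hours after infection with hairpin viruses. In the shDIS3L2 library the target was DIS3L2, the gene of a 3'-to-5' ribonuclease whose substrates carry uridine tails. In the shHNRNPU library it was HNRNPU, the gene of hnRNP U, a protein that binds RNA in the nucleus. The control library was infected in the same way with a hairpin that has no target. The number of hairpins per target, and whether the cells were a clone, are not stated. By its title, the study links DIS3L2 to tumour progression through splicing by hnRNP U.

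D cyclins are made in response to growth signals and bind CDK4 or CDK6. The active kinases phosphorylate the RB1 protein, which otherwise holds E2F transcription factors inactive, and so allow entry into S phase. INK4 proteins bind CDK4 and CDK6 and keep D cyclins from them, while CIP/KIP proteins mainly inhibit CDK2 complexes. CDKN2A encodes 2 unrelated proteins from separate first exons, p16INK4a and p14ARF, and a value per gene does not separate them.

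The values were FPKM, a fragment number scaled to transcript length and to library depth, as the authors deposited them with a lower and an upper bound. A range in parentheses after an FPKM gives those bounds, which describe the precision of that library's own estimate and say nothing of variation from culture to culture. With 1 library per group there is no replicate check and no p-value, and a difference between libraries is not shown to be a difference between knockdowns. Ratios are on the log2(FPKM + 1) scale, which understates the change of low genes, and plain folds of FPKM have a range made by setting the bounds of the 2 libraries against each other. A gene was called higher or lower, written as rose or fell, when the libraries' bounds did not overlap and the log2 ratio reached 1 or -1. A call also required that the deposited status of the estimate was OK in both libraries. Depth estimated from single-exon genes had medians of 18.2 M fragments in shDIS3L2, 20.01 M in shHNRNPU and 22.7 M in control. The targeted genes stood as labelled: DIS3L2 was at 3.23 FPKM in shDIS3L2, 11.2 in shHNRNPU and 7.61 in control, and HNRNPU at 232 in shDIS3L2, 33.5 in shHNRNPU and 178 in control. Both loci were merged with an overlapping noncoding gene.

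Promoter sequence was available for 7 of the 10 genes, as 11 entries of RefSeq on GRCh38.p14, and the 250 bases before the start are printed for both kinases and both INK4 genes, the pairs compared below, with 1 of the 2 entries of CDK6. Capitals mark CACGTG in CDK4 and GGGCGG or its reverse complement in the others (the upstream window of CDKN2A has none), and each strand is the gene's own, which is the minus strand for all of these genes. The start sites were not measured here, and the coordinates are not those of hg19, which the expression files use.

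CDK4 chr12:57752311-57752560: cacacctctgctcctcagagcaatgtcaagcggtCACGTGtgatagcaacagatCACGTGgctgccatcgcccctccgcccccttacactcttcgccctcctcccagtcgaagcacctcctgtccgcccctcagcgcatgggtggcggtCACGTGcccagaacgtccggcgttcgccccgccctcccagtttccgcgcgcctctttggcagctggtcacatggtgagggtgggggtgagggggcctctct
CDK6 chr7:92836574-92836823: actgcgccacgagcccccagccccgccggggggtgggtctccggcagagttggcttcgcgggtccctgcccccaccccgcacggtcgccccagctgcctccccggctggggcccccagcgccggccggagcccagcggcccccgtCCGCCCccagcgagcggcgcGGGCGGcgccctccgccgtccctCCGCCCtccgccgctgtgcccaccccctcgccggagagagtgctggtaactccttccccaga
CDKN2B chr9:22009306-22009555: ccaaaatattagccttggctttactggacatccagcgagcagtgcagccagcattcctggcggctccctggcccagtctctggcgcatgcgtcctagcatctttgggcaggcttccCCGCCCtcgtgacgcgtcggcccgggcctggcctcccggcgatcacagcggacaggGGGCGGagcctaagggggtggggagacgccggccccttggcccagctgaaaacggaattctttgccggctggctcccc
CDKN2A upstream start chr9:21995325-21995574: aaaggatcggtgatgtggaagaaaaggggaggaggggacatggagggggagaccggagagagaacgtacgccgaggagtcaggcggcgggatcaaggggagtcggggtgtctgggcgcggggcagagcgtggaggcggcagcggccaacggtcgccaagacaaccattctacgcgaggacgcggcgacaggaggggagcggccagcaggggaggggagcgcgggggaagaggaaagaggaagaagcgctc
CDKN2A downstream start chr9:21974858-21975107: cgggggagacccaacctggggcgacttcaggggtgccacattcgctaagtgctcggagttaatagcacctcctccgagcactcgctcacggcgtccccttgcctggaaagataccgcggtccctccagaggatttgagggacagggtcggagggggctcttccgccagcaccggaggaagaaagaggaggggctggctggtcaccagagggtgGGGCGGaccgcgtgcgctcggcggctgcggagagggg

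The CDK4 window held 3 copies of CACGTG, the E-box letters, at positions 35, 55 and 150 from its 5' end, and it was the 1 member entry of 11 with any. Of all 35116 promoter windows of this length, 6.34% held these letters. The GC box, GGGCGG, was in 7 of the 11 member entries and in 42.6% of all windows, searched on both strands. The letters TTTNNCGC of E2F sites were in 0 of the 11 and in 5.92% of all windows. TGANTCA, a loose form of AP-1 sites in which N is any base, was in 1, that of RB1, and in 6.57% of all windows. The RB1 match read TGAATCA, in a window of 36.8% G or C with 0 CG pairs. That window begins at position 48476200 of chromosome 13 in GRCh38, while the assembled RB1 locus of control begins at 48877887 in hg19. The builds were not aligned, so the window is not shown to lie at the main start of RB1. Its letters and G or C content are not read as those of the main RB1 promoter. The printed CDK6 window was 80.0% G or C with 30 CG pairs and the second CDK6 entry 67.6% with 23 CG pairs and no GC box, against medians of 58.0% and 11 over all windows, and the CDKN2B window and the upstream and downstream CDKN2A windows had 18, 24 and 20 CG pairs.

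The 10 genes spanned a wide range of levels in PLC cells. CDK4 and CDKN2A were the highest, above 94% of the 11098 loci with a mean of at least 1 FPKM in every library, and CCND2 was listed at 0 in shHNRNPU and control. CCND1 and CCND3 were intermediate, CDKN1B, RB1, CDK6 and CDKN2B stood at 11.5 FPKM or less, and CDKN1C stayed below 1. The order of the first 5 genes was separated by the bounds in each library, but the order itself differed. In shDIS3L2 CDKN2A came first and CDK4 second, while in shHNRNPU and in control CDK4 came first. CCND1 was above CCND3 in both knockdown libraries and below it in control. RB1, CDK6 and CDKN2B could not be ordered in either knockdown library, since neighbouring bounds overlapped, nor could CDKN2B, CDK6 and CDKN1C in control.

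**Figure D1:**
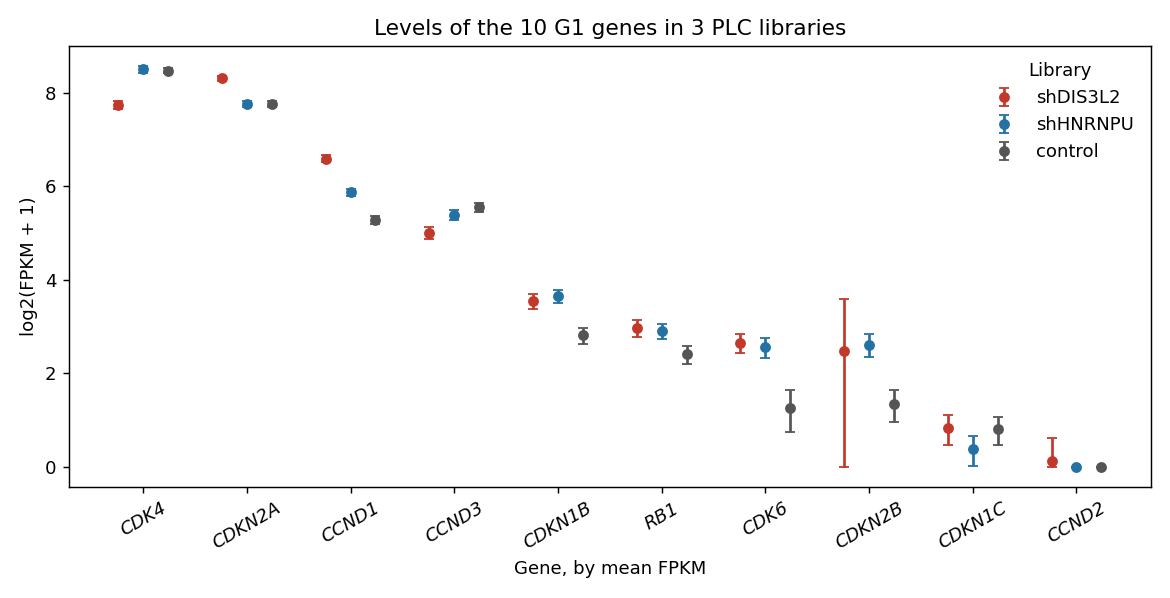
Level of each gene as log2(FPKM + 1) in the shDIS3L2, shHNRNPU and control libraries, with points for the deposited FPKM and bars for the deposited bounds. CCND1 is highest in shDIS3L2 and CDK4 lowest there, CDK6 is low in control, and the CDKN2B bar of shDIS3L2 spans 0 to 10.9 FPKM.

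CCND1, a gene amplified in some liver cancers, encodes cyclin D1 (chromosome 11, 69455855 to 69469242, hg19). It was at 95.4 FPKM (90.8 to 99.99) in shDIS3L2, 57.5 (54.5 to 60.4) in shHNRNPU and 37.8 (35.7 to 39.8) in control. The 3 libraries did not overlap, with both knockdowns above control. CCND1 rose in shDIS3L2, 2.53-fold (2.28 to 2.80) with a log2 ratio of 1.31. In shHNRNPU the fold was 1.52 (1.37 to 1.69) and the log2 ratio of 0.59 stayed below the size rule. ORAOV1, whose locus overlaps the end of CCND1, was at 10.4 FPKM in control and listed at 0 in both knockdown libraries, and its part in the CCND1 difference was not tested.

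CCND3, which encodes cyclin D3 (chromosome 6, 41902671 to 42018095), was lowest in shDIS3L2. Its level was 31.1 FPKM (28.2 to 33.9) in shDIS3L2, 40.9 (37.5 to 44.3) in shHNRNPU and 45.8 (42.6 to 48.9) in control. Only the shDIS3L2 bounds lay apart from control, at a log2 ratio of -0.54, and neither knockdown met the size rule. CCND2, the gene of cyclin D2, was listed at 0.0879 FPKM (0 to 0.518) in shDIS3L2 and at 0 in shHNRNPU and control. The ratio of CCND1 to CCND3 within a library, which no scaling between libraries can change, was 3.07 (2.68 to 3.55) in shDIS3L2, 1.41 (1.23 to 1.61) in shHNRNPU and 0.825 (0.730 to 0.935) in control. Per length, cyclin D1 RNA was the more abundant of the pair in both knockdown libraries and the less abundant in control.

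CDK4 was the most abundant kinase of the group (chromosome 12, 58141510 to 58149796). It stood at 213 FPKM (200.3 to 225) in shDIS3L2, 361 (343 to 380) in shHNRNPU and 354 (340 to 368) in control. The shDIS3L2 library was the low one, 0.601 of control (0.545 to 0.661) with a log2 ratio of -0.73, under the size rule. The bounds of shHNRNPU and control overlapped. The start of CDK4, which lies on the minus strand, overlaps MARCH9, which was at 10.03, 18.5 and 16.97 FPKM in shDIS3L2, shHNRNPU and control, and its part in the CDK4 values was not tested.

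CDK6, the second kinase (chromosome 7, 92234235 to 92465908 in control), was low throughout. Its level was 5.24 FPKM (4.36 to 6.11) in shDIS3L2, 4.88 (4.02 to 5.74) in shHNRNPU and 1.38 (0.665 to 2.09) in control. Both knockdown libraries were above control and overlapped each other. CDK6 rose in both, 3.797-fold (2.08 to 9.19) in shDIS3L2 and 3.54-fold (1.92 to 8.63) in shHNRNPU, with log2 ratios of 1.39 and 1.30. These comparisons share the control library, where the CDK6 estimate was as wide as that of 14.9 fragments, so the folds are imprecise. The assembled start of the gene also differed slightly between libraries. CDK4 made up 97.6% of the summed FPKM of both kinases in shDIS3L2, 98.7% in shHNRNPU and 99.6% in control, so the kinase that rose was the minor one in every library. The ratio of CDK6 to CDK4 was 0.0246 (0.0194 to 0.0305) in shDIS3L2, 0.0135 (0.0106 to 0.0167) in shHNRNPU and 0.00390 (0.00181 to 0.00615) in control, with no overlap between libraries.

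CDKN2A, on chromosome 9 at 21967751 to 21995300, was at 315 FPKM (303 to 328) in shDIS3L2, 216 (205 to 226) in shHNRNPU and 215 (205 to 224) in control. The shDIS3L2 library stood above the others and shHNRNPU overlapped control. Its log2 ratio was 0.55 in shDIS3L2 and 0.01 in shHNRNPU, both under the size rule. The neighbouring CDKN2B, which encodes p15INK4b (22002902 to 22009362), was at 4.52 FPKM (0 to 10.9) in shDIS3L2, 5.09 (4.07 to 6.11) in shHNRNPU and 1.53 (0.930 to 2.12) in control. It rose in shHNRNPU, 3.34-fold (1.92 to 6.57) with a log2 ratio of 1.27. In shDIS3L2 the log2 ratio was 1.13, but the bounds took in control, and the estimate was as wide as that of about 2 fragments. CDKN2A and CDKN2B are related in sequence, and whether reads were shared between them was not tested. A locus merged from 4 names, among them MTAP and the antisense gene CDKN2B-AS1, spans both genes (21802542 to 22121096) and was listed at 0 in every library, which can be a failed estimate.

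The level of CDKN2A relative to CDK4 exceeded 1 in 1 library. It was 1.48 (1.35 to 1.64) in shDIS3L2, 0.597 (0.541 to 0.658) in shHNRNPU and 0.607 (0.559 to 0.658) in control. The CCND1 and CCND3 levels together, relative to CDK4 and CDK6 together, were 0.580 (0.515 to 0.654) in shDIS3L2, 0.268 (0.239 to 0.301) in shHNRNPU and 0.235 (0.212 to 0.260) in control. For both of these ratios the bounds set shDIS3L2 apart from the other libraries, which overlapped. They are ratios of RNA levels per length, and protein was not measured.

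**Figure D2:**
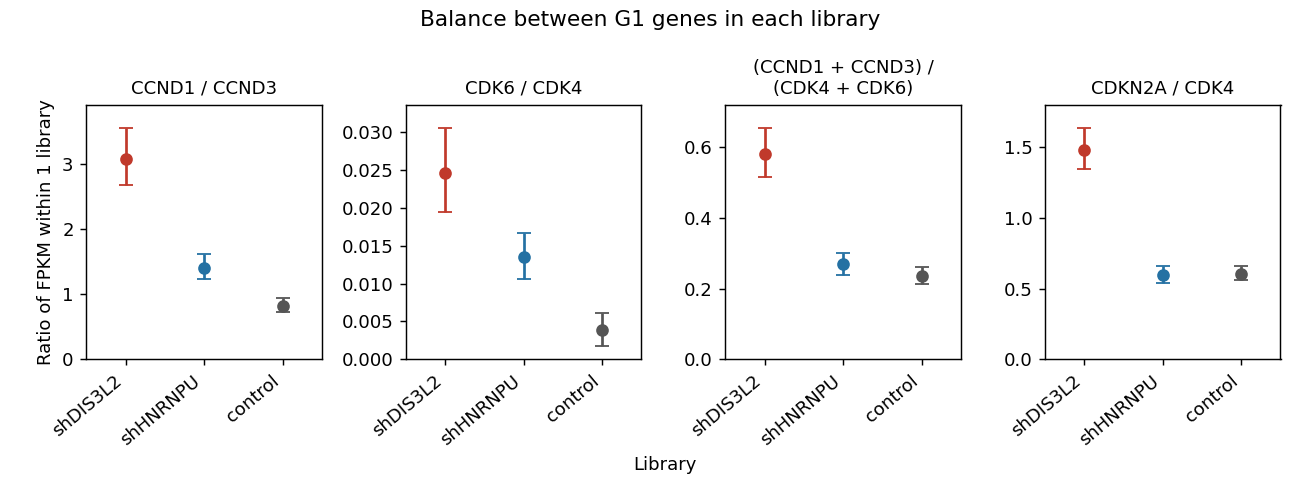
Ratio of FPKM between genes within each library (shDIS3L2, shHNRNPU, control), with points for the ratio and bars for the range given by the deposited bounds. CCND1 over CCND3 is 3.07 in shDIS3L2 against 0.825 in control, and CDKN2A over CDK4 is above 1 in the shDIS3L2 library alone of the 3.

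CDKN1B encodes p27, an inhibitor of CDK2 complexes that also helps cyclin D and CDK4 to assemble (chromosome 12, 12867992 to 12875305). It was at 10.6 FPKM (9.38 to 11.9) in shDIS3L2, 11.5 (10.3 to 12.7) in shHNRNPU and 6.01 (5.18 to 6.83) in control. Both knockdown libraries were above control without overlap, 1.77-fold (1.37 to 2.29) in shDIS3L2 and 1.91-fold (1.502 to 2.44) in shHNRNPU, at log2 ratios of 0.73 and 0.83 that stayed under the size rule. CDKN1C, the imprinted gene of p57, was at 0.762 FPKM (0.376 to 1.15) in shDIS3L2, 0.291 (0.0120 to 0.569) in shHNRNPU and 0.740 (0.382 to 1.097) in control, and all bounds overlapped. At these levels a difference was not detectable.

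RB1, the target of the cyclin D kinases (chromosome 13, 48877887 to 49056175 in control), was at 6.80 FPKM (5.82 to 7.77) in shDIS3L2, 6.42 (5.59 to 7.25) in shHNRNPU and 4.30 (3.58 to 5.02) in control. Both knockdown libraries lay above control and overlapped each other, with log2 ratios of 0.56 and 0.49 under the size rule. The gene holds LPAR6 in an intron, which was at 1.19, 0.982 and 1.37 FPKM in shDIS3L2, shHNRNPU and control.

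Of the 8 members with a mean of at least 1 FPKM, 2 rose and 0 fell in shDIS3L2 (CCND1, CDK6), where 15.3% of all 11098 loci were called, 8.6% higher and 6.68% lower. In shHNRNPU 2 rose and 0 fell (CDK6, CDKN2B), where 14.2% of all loci were called, 7.45% higher and 6.78% lower. As deposited, bounds lay apart from control for 7 of 8 members in shDIS3L2, 5 higher and 2 lower, and for 5 of 8 in shHNRNPU, all higher. Over all loci they lay apart for 57.6% in each comparison, 33.1% higher and 24.5% lower in shDIS3L2 and 34.6% higher and 23.0% lower in shHNRNPU. The 5 of 8 in shHNRNPU is close to that share and the 7 of 8 in shDIS3L2 above it, which over 8 genes is a description. The median log2 ratio of the 8 was 0.64 in shDIS3L2 and 0.54 in shHNRNPU, against 0.10 and 0.12 over all loci. The comparisons share the control library. CCND2 and CDKN1C were below the filter on low values.

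Loci above 0 in every library had a median log2 ratio of 0.11 in shDIS3L2 and 0.13 in shHNRNPU. After median-of-ratios rescaling, which sets those medians near 0, the same members were called. The small positive ratios of CDK4 and CDKN2A in shHNRNPU became -0.13 and -0.15 under that scaling, so no direction was read for either. Counts of bounds apart, and statements that bounds overlapped or lay apart, are on the deposited scale and were not repeated over all loci after rescaling. That 5 of 8 members lay above control in shHNRNPU, with 0 below, holds for the deposited scale only. The size factors were 1.05 for shHNRNPU and 0.944 for control. With bounds divided by them, RB1 overlaps control, and CCND3 and CDKN2A lie below control in shHNRNPU. Rescaled log2 ratios in shHNRNPU were 0.35 for RB1 and -0.31 for CCND3. Rescaling turned the balance of calls over all loci in both knockdowns, to 775 higher and 891 lower in shDIS3L2, against 954 and 741 as deposited, and to 614 higher and 936 lower in shHNRNPU, against 827 and 752 as deposited.

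**Figure D3:**
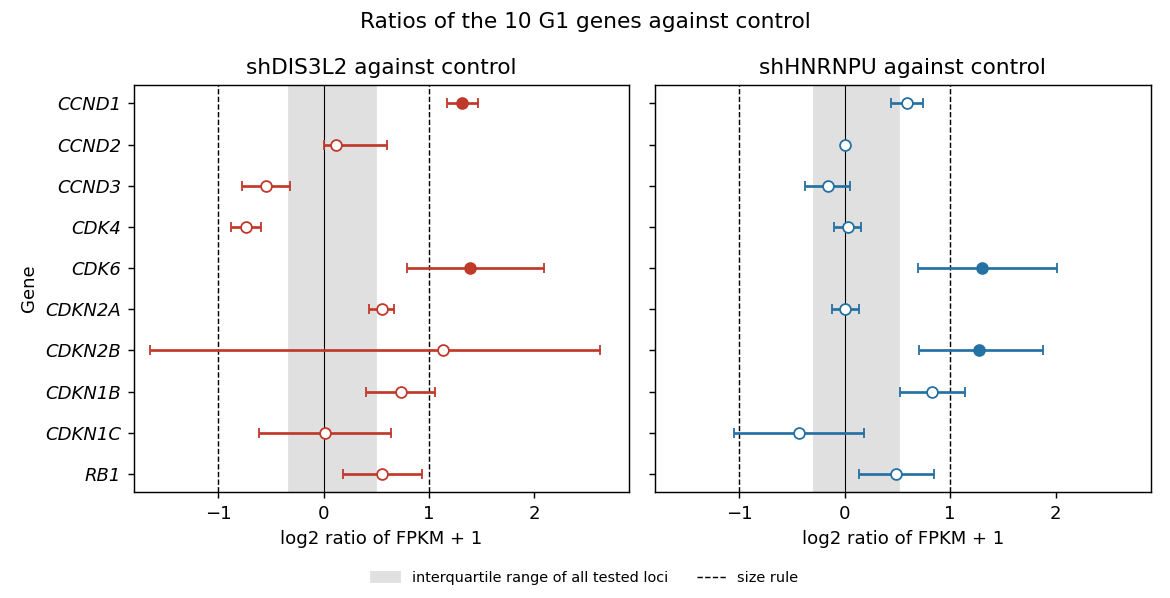
Log2 ratio of FPKM + 1 against control for each gene in shDIS3L2 (left) and shHNRNPU (right), with bars from the deposited bounds, filled points for genes called, grey for the interquartile range of all tested loci and dashed lines at the size rule. CDK6 is filled in both panels, CCND1 on the left (1.31) and CDKN2B on the right (1.27).

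Set directly against each other, the shHNRNPU and shDIS3L2 libraries gave 0 of 8 members called, against 19.2% of all loci, 9.14% higher and 10.1% lower. Bounds lay apart for 4 of 8, 2 higher and 2 lower, against 59.6% of all loci, 31.1% higher and 28.5% lower. CDK4 and CCND3 were higher in shHNRNPU than in shDIS3L2, 1.70-fold (1.53 to 1.89) and 1.32-fold (1.11 to 1.57). CCND1 and CDKN2A were lower in shHNRNPU, at 0.602 (0.545 to 0.666) and 0.684 (0.626 to 0.746) of shDIS3L2. CDK6, CDKN1B, CDKN2B and RB1, the other 4, had log2 ratios of -0.09, 0.10, 0.14 and -0.07, and their bounds overlapped.

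Likeness to the called members was measured over 114 genes of the lists below, as the distance between pairs of log2 ratios against control. CCND1 was nearest to TCF7L2 (distance 0.13; ratios 1.35 in shDIS3L2 and 0.72 in shHNRNPU), CTTN (0.15) and SUZ12 (0.24). CDK6 was nearest to JUN (0.26), MYEOV (0.27) and CTTN (0.57), and CDKN2B to CTNNB1 (0.38), MYEOV (0.44) and CDK7 (0.45). MYEOV had bounds that overlapped control in both knockdowns. The bounds of CDKN2B overlapped control in shDIS3L2, where its estimate was as wide as that of about 2 fragments. The likeness rests on 3 libraries that share 1 control.

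Lists of genes around the G1 step were counted by the same rule, and a median is set beside 0.10 over all loci for shDIS3L2 and 0.12 for shHNRNPU. The counts take in genes listed at 0 in a library, each named as such. A 0 behind a call had a status of OK, and whether the RNA was absent was not tested. Among 18 measured genes known to induce D cyclins, 4 rose and 0 fell in each knockdown, with medians of 0.51 in shDIS3L2 and 0.70 in shHNRNPU, and 3 rose in each among genes above 0 in every library. JUN, a partner in AP-1, was at 41.6 and 36.8 FPKM in shDIS3L2 and shHNRNPU against 12.9 in control, and rose in both. FOSL1, another AP-1 subunit, was at 35.4 and 22.9 FPKM and listed at 0 in control. TCF7L2, a partner of beta-catenin, rose in shDIS3L2 (12.7 FPKM against 4.40 in control) and CTNNB1, beta-catenin itself, in shHNRNPU (131 FPKM against 62.2 in control). Both were above control in the other knockdown as well, with bounds apart and no call. TCF7L2 was at 7.87 FPKM in shHNRNPU and CTNNB1 at 110 in shDIS3L2. EGFR, a growth factor receptor, was at 64.6 FPKM in shHNRNPU against 29.5 in control and rose there, while YAP1, in a locus merged with a second name, rose in shDIS3L2 (27.5 FPKM against 12.9 in control). EGFR was at 32.4 FPKM in shDIS3L2, with bounds overlapping control, and YAP1 at 16.1 in shHNRNPU, with bounds above control. MYC, a direct activator of CDK4, stood at 43.3 FPKM in shDIS3L2, 21.1 in shHNRNPU and 30.6 in control and met the size rule in neither knockdown. RELA, an NF-kappaB subunit, was at 59.7, 80.2 and 53.6 FPKM in shDIS3L2, shHNRNPU and control, and the kinase gene MAPK3 at 29.8, 70.6 and 59.97, neither called. The MAPK3 locus was merged with GDPD3 in shDIS3L2 and control but not in shHNRNPU, so its values are of unlike loci.

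Of the 4 other CDK inhibitors, CDKN1A, the gene of p21, an inhibitor of CDK2 complexes, rose in shDIS3L2 to 36.7 FPKM (34.2 to 39.3) and stood at 15.4 (13.9 to 16.8) in shHNRNPU and 7.53 (6.58 to 8.49) in control. Its log2 ratio in shHNRNPU, 0.94, was just under the size rule. CDKN2D, the INK4 gene of p19, was called higher in shDIS3L2, where it was merged with AP1M2 and so has no value of its own; its own locus was at 20.3 FPKM in shHNRNPU and 10.5 in control. CDKN2C and CDKN3 were not called, at 29.9 and 51.8 FPKM in shDIS3L2, 22.4 and 51.97 in shHNRNPU, and 28.7 and 45.1 in control. Counting loci that carry 1 name, 1 of 3 rose in shDIS3L2 and 0 in shHNRNPU.

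CDK2, its cyclins and the CDK-activating kinase had 2 of 10 genes higher and 0 lower in shDIS3L2, and 3 higher and 0 lower in shHNRNPU, with medians of 0.18 and 0.82. The shDIS3L2 median was 0.06 after rescaling and 0.03 over genes with a locus of their own above 0. CDK7, the kinase that activates other CDKs, rose in shDIS3L2 (28.0 FPKM against 13.1 in control), and its partner CCNH rose in shHNRNPU (27.03 FPKM against 8.29 in control). CDK7 was at 24.1 FPKM in shHNRNPU, with bounds overlapping control, and CCNH at 15.3 in shDIS3L2, with bounds above control. MNAT1, the third subunit, lay in a locus of 3 names that rose in shHNRNPU. CCNE2, cyclin E2, was at 3.27 FPKM in shDIS3L2 and 5.39 in shHNRNPU and listed at 0 in control. CCNE1, cyclin E1, stood at 20.8, 29.6 and 20.46 FPKM in shDIS3L2, shHNRNPU and control, and CDK2 at 30.3, 58.6 and 45.0, none past the size rule. The merged locus of CDK3 was not called either, at 88.9 FPKM in shDIS3L2, 94.1 in shHNRNPU and 60.9 in control.

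E2F and pocket proteins were nearly all uncalled, with 1 of 12 lower in shDIS3L2 (E2F5, listed at 0 there) and 1 higher in shHNRNPU (E2F6, a repressor, 27.2 FPKM against 12.4 in control). In the other knockdown neither was called. E2F5 was at 3.74 FPKM in shHNRNPU, with bounds below control, and E2F6 at 16.7 in shDIS3L2, with bounds above control. E2F1 was at 50.4 FPKM in shDIS3L2, 61.4 in shHNRNPU and 48.3 in control. E2F4, an E2F that acts mostly as a repressor with pocket proteins, and TFDP1, the partner of E2Fs, were at 52.3 and 74.8 FPKM in shDIS3L2, 61.5 and 84.8 in shHNRNPU, and 51.4 and 88.6 in control. E2F target genes of S phase entry had a median of -0.41 in shDIS3L2, with 1 higher (CCNE2), 2 lower and 21 neither of 24, and 17 of the 24 had bounds below control, against 24.5% of all loci. GINS2 and MCM2, parts of the replicative helicase, fell there to 21.2 and 41.7 FPKM, against 50.7 and 87.3 in control. GINS2 was at 36.5 FPKM in shHNRNPU, with bounds below control and no call, and MCM2 at 88.9, with overlapping bounds. In shHNRNPU the median was -0.02, or -0.17 after rescaling, with 2 higher, 1 lower and 21 neither, and 9 of the 24 had bounds below control and 9 above it, against 23.0% and 34.6% of all loci. The merged locus of RRM2, a ribonucleotide reductase subunit, was called higher there under names that differed from those in control. TYMS, thymidylate synthase, was at 173 FPKM in shDIS3L2, 144 in shHNRNPU and 257 in control, with bounds apart and no call, and the merged locus of the checkpoint kinase gene CHEK1 was at 180.5 FPKM in shDIS3L2, 190.5 in shHNRNPU and 142 in control.

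Genes that turn over D cyclins and p27 had 2 of 18 higher and 0 lower in shDIS3L2 and 0 higher and 2 lower in shHNRNPU, with medians of 0.23 and 0.06, which became 0.11 and -0.04 after rescaling. Over genes with a locus of their own above 0 the shDIS3L2 median was 0.04. The 2 higher were CRYAB, listed at 0 in control, and the merged locus of RBX1. UBAC1, part of a p27 ubiquitin ligase, and FBXO4, which targets cyclin D1, fell in shHNRNPU to 13.1 and 1.36 FPKM, against 32.7 and 4.14 in control. In shDIS3L2 they were at 22.3 and 2.11 FPKM, with bounds below control and no call. SKP2, the F-box protein that marks p27 for destruction, was at 8.01 FPKM in shDIS3L2, 7.75 in shHNRNPU and 12.6 in control, with bounds apart from control in both and no call. Its partners CKS1B and SKP1, the second in a locus of 5 names, were at 406 and 380.3 FPKM in shDIS3L2, 521 and 491 in shHNRNPU, and 394 and 383 in control, not called. Regulators of CDKN genes had 2 higher and 0 lower of 17 in shDIS3L2 (median 0.03, or -0.09 after rescaling) and 1 higher and 1 lower in shHNRNPU (median 0.34). SUZ12, a Polycomb subunit, rose in shDIS3L2 (13.7 FPKM against 5.51 in control). It was at 7.54 FPKM in shHNRNPU, with bounds above control and no call. The other calls were on merged loci, that of BMI1, higher in shDIS3L2 and lower in shHNRNPU, and that of SMAD4, higher in shHNRNPU. MEN1, the gene of menin, was at 38.4, 47.9 and 37.7 FPKM in shDIS3L2, shHNRNPU and control, not called and merged with another name in at least 1 library. HSP90 and its partners, which fold CDK4, had 0 of 7 called in shDIS3L2 and 1 higher in shHNRNPU (HSP90AA1, 340 FPKM against 160.2 in control). HSP90AA1 was at 202 FPKM in shDIS3L2, with bounds above control. HSP90AB1 was at 961, 972 and 858 FPKM and the merged locus of HSPA8 at 1112, 1053 and 999 in shDIS3L2, shHNRNPU and control.

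**Figure D4:**
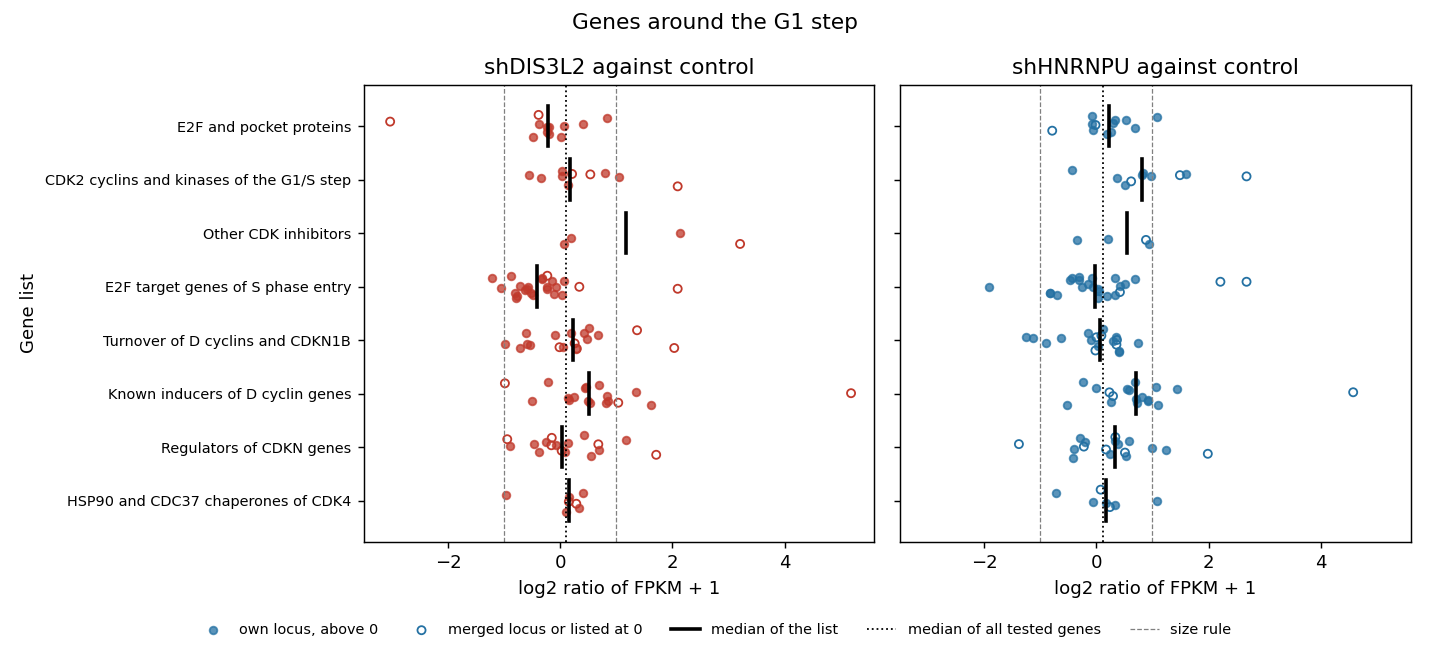
Log2 ratio of FPKM + 1 against control for the genes of 8 lists in shDIS3L2 (left) and shHNRNPU (right), with filled points for genes with a locus of their own above 0 in every library, open points for merged loci or genes listed at 0, black bars for list medians and a dotted line for the median of all tested loci. The median of E2F targets lies left of the dotted line in shDIS3L2 (-0.41), and that of inducers of D cyclins right of it in both panels (0.51 and 0.70).

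Lists of genes from the chromosome regions of 2 members were read as context. Of the 10 genes next to CCND1, 6 had a mean of at least 1 FPKM, and CTTN, which encodes the actin-binding protein cortactin, rose in shDIS3L2 (115 FPKM against 44.9 in control) and FADD, a death receptor adaptor, in shHNRNPU (60.8 FPKM against 28.95 in control). CTTN was at 75.6 FPKM in shHNRNPU, with bounds above control, and FADD at 20.2 in shDIS3L2, with bounds below control, neither called. ORAOV1 was listed at 0 in both knockdowns, and PPFIA1 was listed at 0 in shDIS3L2 and stood at 13.7 FPKM in control. They counted as lower only through those zeros, and 0 genes of this list were lower among those above 0 in every library. TPCN2 was at 6.85, 7.504 and 10.9 FPKM in shDIS3L2, shHNRNPU and control, not called. The list for the CDKN2A region held 8 genes. Their distances from CDKN2A were not measured, so they need not all be close neighbours. Of these genes, 3 passed the filter and 0 were called in either knockdown. Among them were TUSC1 at 6.44, 16.1 and 8.54 FPKM and FOCAD at 3.69, 2.29 and 2.25 in shDIS3L2, shHNRNPU and control.

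The labelled cell type was checked with marker lists. All 14 hepatocyte markers were measured, and their FPKM summed to 3583 in shDIS3L2, 8114 in shHNRNPU and 13799 in control, with 6 called lower and 1 higher in shDIS3L2 and 4 lower and 0 higher in shHNRNPU. SERPINA1, the gene of alpha-1 antitrypsin, gave 2865, 6710 and 11439 of these sums, and the median FPKM of the 14 markers was 14.8 in shDIS3L2, 19.9 in shHNRNPU and 21.3 in control. Of 5 endothelial markers found, 0 reached 1 FPKM in any library, and sums ran from 0.0783 to 0.471. Of 8 fibroblast and stellate cell markers, 1 did in each library, PDGFRA in a merged locus, with LUM at 0. Of 8 blood cell markers, 3 did in each library, with CD3E and HBB at 0: CD68 in a merged locus, LYZ, which fell to 33.5 FPKM in shDIS3L2 and 70.8 in shHNRNPU against 181 in control, and HBA1, which rose in shHNRNPU to 44.9 FPKM against 8.94 in control. Cholangiocyte markers summed to 133 FPKM in shDIS3L2, 87.5 in shHNRNPU and 81.6 in control, and 2 of 3 tested rose in shDIS3L2 (KRT7 and SOX9). The part of these marker changes in the member differences was not tested. In bulk RNA, fewer cells in a given phase and less RNA per cell cannot be told apart.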

How the data were processed

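RNA-seq of 3 PLC libraries was used, 1 per group, grouped by the labels. Per the file headers, the deposited values are FPKM per gene, each with a status and 2 bounds. The submitters' processing notes name TopHat2 2.0.12, Cufflinks 2.2.1 and hg19. Identifiers in the deposited files show that genes were assembled per library, so overlapping genes can be merged and bounds can differ. Normalization options are not stated, nor is a stranded protocol, so antisense reads cannot be separated.

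Genes were matched by name with Python 3.11.15 and pandas 2.3.3. For a name with several loci the highest was used, a mean of 1 FPKM was required, and ratios used a pseudocount of 1. The tables give no counts; half-widths were read as 2 SD, which made 31.5% to 33.1% of estimates up to 20 fragments whole within 0.02, too few for a count test. Single-exon genes of at least 2000 bases gave the depths. The call rule was tested on simulated data with counting noise alone and planted changes larger than those of the called members. That test leaves out variation between cultures and cannot vouch for the calls made here. Members, lists and rules were chosen with earlier results of these data known. Named genes were the members, both targets, CDKN1A, CCNE1, CCNE2, CDK2, E2F1, SKP2 and MYC, for each list and knockdown up to 4 called genes with the largest ratio and up to 2 uncalled genes with the highest mean, and for each called member the 3 nearest list genes. Loci overlapping members and single markers were named after their values were seen. Some genes of the lists are counted but not reported by name here. Other settings were pseudocounts of 0.1 and 5, other filters and sizes, rescaling, summed loci, loci of 1 name and genes above 0.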

Additional observations from a re-analysis of the deposited data

How the results depend on the processing

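The calls of CCND1 and CDK6 in shDIS3L2 and of CDK6 and CDKN2B in shHNRNPU were kept with a pseudocount of 0.1 and after rescaling. Dropping the filter added no member call, and summed loci, loci of 1 name and leaving out genes listed at 0 could not alter these calls, since each called member has 1 name, 1 locus and a value above 0 in every library. With a pseudocount of 5, 1 member (CCND1) was called in shDIS3L2 and 0 in shHNRNPU, and the calls over all loci were 852 in shDIS3L2 against control, 780 in shHNRNPU against control and 1099 between the knockdowns, against 1695, 1579 and 2136 as reported. With a mean of at least 5 FPKM, 1 and 0 members were called, because CDK6 and CDKN2B lie below that filter. When 1.5-fold was enough, 4, 4 and 2 members and 3669, 3617 and 4228 loci were called, in the same order of comparisons, the added members being CDK4 (lower) and CDKN1B in shDIS3L2, CCND1 and CDKN1B in shHNRNPU, and CCND1 (lower) and CDK4 between the knockdowns. When bounds apart were enough, 7, 5 and 4 members and 6389, 6387 and 6617 loci were called. Of the 72 log2 ratios of members that the pseudocounts and rescaling could alter, 61 moved by no more than an error combined from both libraries' bounds and 11 by more. No called ratio changed sign, but a pseudocount cannot change a sign, and the shift by rescaling was far smaller than any called ratio. No paired analysis was possible because each group had 1 library, and no library could be left out. Low levels at this depth limit CCND2, CDKN1C and the control estimate of CDK6. The wide shDIS3L2 bounds of CDKN2B, as wide as about 2 fragments against 100.2 in shHNRNPU at a similar level and a depth of 18.2 M against 20.01 M fragments, have a cause that was not tested.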
